A study of Mus musculus with 64 samples.

Results

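Trp63 is the mouse gene for p63, a transcription factor of the p53 family, and it lies on the plus strand of chromosome 16 from 25683765 to 25892088 in build GRCm38 (mm10). Every transposon insertion listed between those bases was taken, which gave 75 of 385883 deposited lines. Each of the 75 lay on the motif its transposon needs, and together they were 75 of the 299598 insertions kept over the genome. The gene was chosen by its insertion counts: PiggyBac (PB) tails held more insertions in it than PB tumours did. Its insertion numbers and levels in PB tails and tumours are therefore given as a description with no test.

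The insertions come from a transposon screen for lymphoma genes in mice, with 64 genomic DNA samples in 4 groups: 12 PB tails, 30 PB tumours, 11 Sleeping Beauty (SB) tails and 11 SB tumours. The tumours were diffuse large B cell lymphomas taken from lymph nodes, spleen, mesenteric masses and some other sites, and tail tissue served as the control. Insertion sites were read with QiSeq, a splinkerette PCR that amplifies the junctions of transposon and genome, followed by 75 bp paired-end MiSeq sequencing. PB transposons enter TTAA sites and SB transposons enter TA sites. The SB mice carried the Rosa26SB transposase allele and an ITP transposon array, line ITP1-C or ITP2-M, on a Blm m3/m3 background, which raises the rate of mitotic recombination. PB mice were ITP mice with the Rosa26PB transposase from an earlier cohort, and their labels give the genotype as IMPB with no further allele. ITP transposons are built as gene traps that inactivate genes, the transposase was constitutive in both systems, and all mice had a mixed background of C57BL/6, FVB and a further strain. Ages were not given. The full codes in the names of tails and tumours did not overlap, so no tail could be paired with a tumour of the same code.

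After chromosome 14, taken as the transposon donor for its density of insertions, and chromosomes X and Y were left out, PB tails kept 4010 ± 1926 insertions per sample (mean ± SD, n = 12) and PB tumours 5229 ± 2526 (n = 30). SB tails kept 4617 ± 1495 (n = 11) and SB tumours 3983 ± 2225 (n = 11). The kept insertions of a sample rested on 71170 to 193314 reads in PB tails, with a median of 122874, and on 60545 to 5721832 in PB tumours, with a median of 136578. In SB tails the reads ran from 55502 to 369482, with a median of 104091, and in SB tumours from 56871 to 162837, with a median of 106974. The 4 groups thus had medians of like size, 1 spleen tumour, PB tumour 3, stood far above the rest in reads, and the 4 SB tails with separated names lay above the other 7. Reads carried no molecular identifiers, so their number is not a number of molecules or cells. In bulk DNA, the share of cells of a given type in a tail and the insertion rate within those cells cannot be told apart. The sample names come in 2 forms, with a first number joined to the genotype code or separated from it, and that number, whose meaning is not given, recurs among tails and tumours.

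p63 is made from a pair of promoters. The upstream promoter gives TA isoforms, which carry an amino-terminal transactivation domain, and an internal promoter in intron 3 gives ΔN isoforms, which lack it. ΔNp63 is the main form in basal keratinocytes of the epidermis, where it is needed for stratification and for the upkeep of progenitor cells, while TAp63 is best known from oocytes. Enhancers inside the gene, among them C15, C38 and C40, act on p63 in epithelia, and the longer element p63LRE, which spans C38 and C40, drives expression in epidermis.

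In the RefSeq annotation the TA transcript had 14 exons and the ΔN transcript 12. The ΔN transcript started at 25801916, 118 kb after the TA start, and its first exon ran to 25802101 inside intron 3 of the TA transcript. The gene held 1446 TTAA sites, open to PB, and 14398 TA sites, open to SB. Position in the gene is given below on the scale of these sites, so that stretches rich in sites do not count as preferred.

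PB tails held 43 of the 75 insertions, and 12 of 12 PB tails had at least 1. A PB tail held between 1 and 7 Trp63 insertions, with a median of 3.5 and a mean of 3.58 ± 1.83 (SD, n = 12). Per 10000 kept insertions of the sample, the lowest level in PB tails was 4.64, the median 7.51 and the highest 33.4. PB tail 5 was the highest, with 7 insertions among 2095 kept, and PB tail 9 followed at 16.4 with 6 insertions, while PB tails 1, 4, 11 and 12 lay lowest. The level of PB tails with joined names averaged 11.9 ± 12.2 (n = 5), and that of PB tails with separated names 9.28 ± 4.71 (n = 7). High and low tails thus occurred under both name forms.

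The other groups held fewer. PB tumours had 16 insertions in 13 of 30 samples, so the lowest and the median level were 0, and the highest was 12.98 in PB tumour 28, a mesenteric lymph node with 2 insertions among 1541 kept. By name form, PB tumours averaged 0.994 ± 1.24 in joined names (n = 22) and 2.40 ± 4.50 in separated names (n = 8), a mean that rests on PB tumour 28 and without it falls below that of joined names. SB tails had 11 insertions in 7 of 11 samples, with a median level of 2.22 and a highest of 4.66. Name form moved with the level in SB tails, at 3.12 ± 1.70 in joined names (n = 7) and 0.350 ± 0.699 in separated names (n = 4), but so did depth: the joined SB tails had 55502 to 106452 kept reads and the separated ones 267354 to 369482. The part of either in the SB tail level was not tested. SB tumours had 5 insertions in 4 of 11 samples, with a median of 0 and a highest of 13.2 in SB tumour 7, a salivary gland lymph node with 1 insertion among 760 kept. Both high tumours were thus samples with few kept insertions, in which 1 or 2 insertions make a high level.

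By mean level the groups ran from PB tails, 10.4 ± 8.25 per 10000 (SD, n = 12), over SB tails, 2.12 ± 1.96 (n = 11), and SB tumours, 2.02 ± 3.97 (n = 11), to PB tumours, 1.37 ± 2.53 (n = 30). Without SB tumour 7 the SB tumour mean was 0.904, below that of PB tumours. The last 3 did not differ beyond their spread, and PB tails lay above SB tails by about 1 SD of the PB tails. The groups overlapped: 3 of 12 PB tails lay above the highest PB tumour, and 1 of 30 PB tumours lay above the lowest PB tail. Against SB tails, 10 of 12 PB tails lay above the highest SB tail, and 1 of 11 SB tails lay above the lowest PB tail. Counted as reads in place of insertions, the mean level per 10000 reads was 9.93 ± 8.05 in PB tails, 0.580 ± 1.62 in PB tumours, 1.31 ± 1.67 in SB tails and 1.41 ± 2.95 in SB tumours. PB tails were the highest group on either scale. The edgeR fit over all genes put Trp63 at a log2 difference, tails minus tumours, of 2.90 in PB, given here without a p because that contrast chose the gene, and of 0.76 in SB, which did not pass (adjusted p = 0.814).

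**Figure D1:**
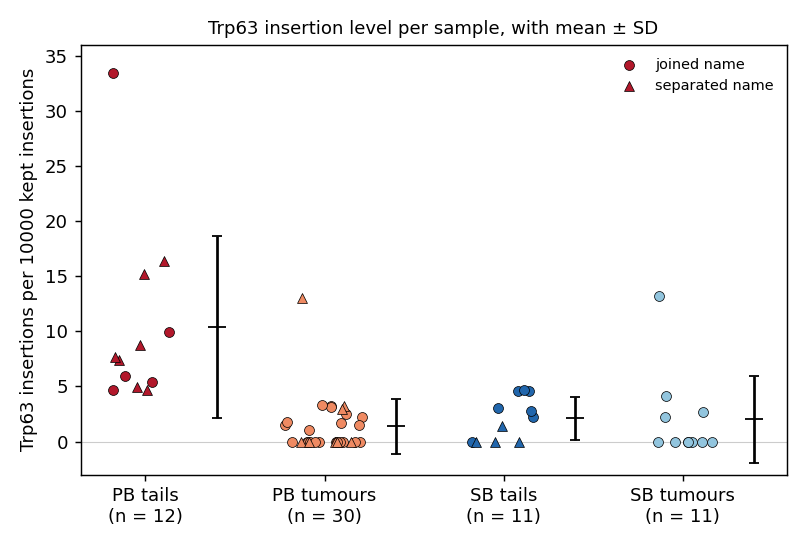
Trp63 insertions per 10000 kept insertions of each sample (vertical axis) in the 4 groups (horizontal axis); each point is 1 sample, circles mark joined and triangles separated sample names, and the bars give mean ± SD. All 12 PB tails lie at 4.64 or more, while the median of both tumour groups is 0.

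An expected number was taken from the share of the motif sites of chromosome 16 that lie in Trp63, applied to the chromosome 16 insertions of each group. SB tail 1 had 686 of 6572 kept insertions on chromosome 16, against 301 of 7148 in SB tail 9. PB tumour 15 had 676 of 9016, against 435 of 9443 in PB tumour 11. SB tail 1 and PB tumour 15 each held 3 Trp63 insertions, the most of their groups. What part this had in the levels and ratios was not tested. PB tails had 7.67 times the expected 5.61 insertions, PB tumours 0.883 times the expected 18.1, SB tails 1.80 times the expected 6.12 and SB tumours 1.17 times the expected 4.27. In the tumours of both systems Trp63 was thus hit about as often as its motif sites alone would give. By number of insertions Trp63 ranked 8 of 22541 genes in PB tails and 1359 in PB tumours, and 304 of 23859 genes in SB tails and 887 in SB tumours. Among the 675 genes with at least as many TTAA sites, Trp63 had the highest ratio of observed to expected insertions in PB tails, where the median of those genes was 0.866, and ranked 282 in PB tumours.

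Where in the gene the transposons sat was not what chose it, and could be tested within each group of tails. PB tail insertions gathered in the part of the gene that both transcripts share. Of the 43, 10 (23.3%) lay between the TA start and the ΔN start, which holds 58.4% of the TTAA sites, and 33 (76.7%), from 11 of 12 tails, lay from the ΔN start to the end, which holds 41.6%. Exon 1 and intron 1 of the TA transcript, the longest stretch with 39.4% of the sites, held 3 insertions. Also upstream, intron 3 before the ΔN start held 7 (16.3%) against 18.6% of the sites, and the stretch from exon 2 to exon 3, with 6 TTAA sites, held none. The first exon of ΔN and the remainder of intron 3 also held 7 (16.3%), against 8.64% of the sites.

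To test this, each insertion was given its rank among the motif sites of the gene, from 0 at the first site to 1 at the last, and the ranks were averaged within each sample, so that an even spread over the sites gives 0.5. In PB tails this position ran from 0.472 to 0.818 with a median of 0.686, and 10 of 12 samples lay above 0.5. The mean was 0.651 ± 0.109 (SD, n = 12; two-sided exact sign-flip permutation test over samples, p = 0.00293, adjusted p = 0.0234 over 12 tests of position, strand and reads). The same ranks taken for the distance to the ΔN start, where 0 is the nearest site and 1 the farthest, ran from 0.187 to 0.595 with a median of 0.319. Of the 12 PB tails, 11 lay below 0.5, with a mean of 0.346 ± 0.127 (SD, n = 12; same exact test, p = 0.00391, adjusted p = 0.0234). Averaged over samples, PB tail insertions thus lay farther into the gene and closer to the ΔN start than its motif sites do. These measures are not independent. The sites farthest from the ΔN start are those at the beginning of the gene, so the few hits in exon 1 and intron 1 move both. In kilobases, the median PB tail insertion was 31.0 kb from the ΔN start and the median TTAA site 53.1 kb.

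Both calls were lost under some alternatives, with the means on the same side of 0.5. Restricted to insertions with at least 10 reads, closeness was 0.381 (n = 11, adjusted p = 0.141), while position passed. With tails averaged by the first number in their names, which is 1 for 5 of the 12 tails and 9 for 3, position was 0.654 and closeness 0.373 (6 values, adjusted p = 0.188 and 0.281, exact sign-flip test). Within the name forms, position was 0.693 in joined names (n = 5, adjusted p = 0.416, exact sign-flip test) and 0.622 in separated names (n = 7, adjusted p = 0.0938, exact), and closeness was 0.364 (n = 5, adjusted p = 0.416, exact) and 0.332 (n = 7, adjusted p = 0.0938, exact). With separated names SB tails could not be tested, so the adjustment there was over PB tail tests alone, which is milder than over 12. With 5 samples the smallest p this test can give is 0.0625, so the threshold was out of reach. With 6 values it is 0.0313, which position reached. After adjustment over 12 tests this passes only if 8 of them are as low. The loss of position was thus also largely set by the number of values. Closeness had p = 0.0938 before adjustment in the same exact sign-flip test, so its loss was not set by that number alone. Without the positions hit in more than 1 tail the means were 0.655 for position and 0.364 for closeness (n = 11, adjusted p = 0.0703 for both).

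Among the stretches set by exons and introns, the densest in PB tail insertions per TTAA site was intron 4, which follows exon 4, the first exon that both transcripts share. It held 22 of the 43 PB tail insertions (51.2%), from 9 of 12 tails, against 19.7% of the TTAA sites. Averaged over samples, 46.0% ± 34.3 (SD, n = 12) of the insertions of a PB tail lay in intron 4. This stretch was singled out after its values were seen, so no test was made of it. The window of 25 kb from 25825001 to 25850000, inside intron 4, held 19 PB tail insertions, the most of 3928 such windows on chromosome 16, and the next fullest window held 10. The same window held 4 insertions of PB tumours, 0 of SB tails and 1 of SB tumours.

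Intron 4 contains p63LRE, from 25833880 to 25845910. It held 8 PB tail insertions from 6 of 12 tails, 18.6% of them against 4.70% of the TTAA sites. The most read PB tail insertion of the gene, with 147 reads in PB tail 7, lay in p63LRE at 25835387, shortly before C38, whose span is 25835739 to 25836090. C38 itself held 2 TTAA sites and no insertion, and C40, from 25843712 to 25844045, held no TTAA site. PB tumours had 2 insertions in p63LRE, SB tumours 1 and SB tails none, and the site with 102 reads in PB tumour 28 was among them.

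Smaller groups of PB tail insertions lay at the other annotated elements. Within 2 kb of the C15 enhancer, which lies in intron 3 from 25780028 to 25780386, there were 4 insertions from 4 tails on 18 TTAA sites. Within 2 kb of the ΔN start there were 4 from 3 tails on 43 sites, and 1 of them, from PB tail 9, lay in the annotated ΔN promoter, 25801704 to 25802304. Within the gene, the first 2 kb after the TA start held no insertion of any group on 16 TTAA and 124 TA sites. These groups too were noticed in the data and were not tested.

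The insertions at the ΔN start are shown with the genomic sequence around them, read on the plus strand of GRCm38, because they mark how close to that promoter the transposon landed. Capitals mark the TTAA site that PB entered, with 12 bases of flank on each side, and the name gives the tail, the coordinates of the TTAA and the strand of the insertion.
PB tail 3, chr16:25801259-25801262, plus: tatgtttgttttTTAAgtctagtaagac
PB tail 9, chr16:25802158-25802161, minus: tcgcttcttcttTTAAataaaaacatac
PB tail 9, chr16:25802547-25802550, minus: ttttttttttctTTAAgtaatgaagtgg
PB tail 5, chr16:25802866-25802869, minus: tgacttagggatTTAAatcactgggcta
Counted from the ΔN start, the first lies at -657, before it, and had 3 reads. The others lie at 242, 631 and 950, after it, and had 102, 124 and 72 reads.

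Some TTAA sites were hit in more than 1 tail. Of the 40 TTAA positions with a PB tail insertion in Trp63, 3 (7.50%) were hit in 2 tails. Over all PB tail positions, 845 of 47200 (1.79%) were hit in 2 or more tails. Trp63 was chosen for its many PB tail insertions, and a densely hit gene has more positions hit again, so the shares are not a like comparison. The 3 Trp63 positions are shown as repeated landing sites, with capitals again marking the TTAA.
PB tails 2 and 5, chr16:25778959-25778962: tgccacaccttcTTAAagcagggaaaaa
PB tails 1 and 9, chr16:25826063-25826066: tctttgcttttcTTAAtcataccaggtt
PB tails 5 and 8, chr16:25844797-25844800: tgtatacccaagTTAAgaaagattcaga
The first lies 1069 bases before C15, with 5 and 13 reads and both insertions on the plus strand. The second lies in intron 4, with 32 and 74 reads, both on the minus strand. The last lies in p63LRE, with 2 reads on the plus strand in PB tail 5 and 60 on the minus strand in PB tail 8, so these were insertions in different directions. Over the 40 positions, the third base before the TTAA was T in 25 (62.5%), against 34.7% of the 1446 TTAA sites of the gene. The third base after it was A in 18 (45.0%), against 33.5%. In PB tumours these bases were found at 6 (37.5%) and 4 (25%) of 16 positions, and neither base was tested.

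An insertion on the strand of the gene and one on the opposite strand can act differently on its transcripts, so strand was compared as well. In PB tails 19 insertions lay on the plus strand, that of the gene, and 24 on the minus strand. Per sample the plus-strand share ran from 0 to 0.750 with a median of 0.333 and a mean of 0.343 ± 0.297 (SD, n = 12), with 8 samples below 0.5 and 3 above. This difference from 0.5 did not pass (p = 0.0967, adjusted p = 0.193, exact sign-flip permutation test). Inside intron 4, 11 of 22 were on the plus strand, while in intron 3 it was 5 of 7 before the ΔN start and 1 of 7 after it. PB tumours had 7 plus and 9 minus, SB tails 4 and 7, and SB tumours 2 and 3.

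Only 1 of the 75 insertions touched an exon: in PB tail 2, at 25890557 in exon 14, outside the coding sequence, with 10 reads. The other 74 were intronic, and none of the 75 lay in coding sequence.

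Reads were compared among the insertions of the same sample. PB tail insertions in Trp63 had 2 to 147 reads with a median of 25, and 30 of 43 (69.8%) had at least 10, against 71.4% of all kept insertions of PB tails. Each insertion was ranked by reads among all those of its sample, from 0 to 1. The per-sample mean ran from 0.211 to 0.882 with a median of 0.516, and its mean was 0.50 ± 0.187 (SD, n = 12; 6 samples on either side of 0.5, exact sign-flip permutation test, p = 0.993, adjusted p = 0.993). This mean was 0.417 in joined names (n = 5) and 0.560 in separated names (n = 7). None was among the 10 most read insertions of its tail and 1 was among the 100 most read, the one in p63LRE in PB tail 7, which ranked 63.

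In PB tumours the 16 insertions had a median of 5.50 reads, and 3 (18.8%) had at least 10, against 36.2% of all kept insertions there. The best placed ranked 356 in its tumour. SB tail insertions had a median of 12.0 reads and 7 of 11 (63.6%) had at least 10, against 70.8%, and those of SB tumours had a median of 25 reads, with 3 of 5 at 10 or more. No Trp63 insertion of a tumour was among the 100 most read of its sample.

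In SB tails the insertions lay on both sides of the ΔN start. Of 11, 6 lay before the ΔN start and 5 after it, with 5 in exon 1 and intron 1 and 2 in intron 4. Position averaged 0.532 ± 0.278 (SD, n = 7; 4 samples above 0.5; adjusted p = 0.958, exact sign-flip permutation test) and closeness to the ΔN start 0.502 ± 0.245 (n = 7; 3 samples below 0.5; adjusted p = 0.993, exact). The plus-strand share averaged 0.333 ± 0.373 (n = 7; 4 samples below 0.5; adjusted p = 0.563, exact). The read rank lay below 0.5 in 6 of 7 samples, with a mean of 0.321 ± 0.155 (p = 0.0469, adjusted p = 0.141, exact). With 7 samples the smallest p the test can give is 0.0156, and a p that misses the threshold does not show that values did not differ.

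The difference between the systems was tested directly with two-sided exact permutation tests over the 12 PB and 7 SB tails. PB minus SB, the mean position differed by 0.120 (p = 0.203, adjusted p = 0.348) and the closeness rank by -0.156 (p = 0.0856, adjusted p = 0.193). The plus-strand share differed by 0.00952 (p = 0.991, adjusted p = 0.993) and the read rank by 0.179 (p = 0.0431, adjusted p = 0.141), both by the same permutation test. None passed, so the gathering in PB tails was not shown to differ from SB tails, though the outcome hung on single SB tails. Without SB tail 3 the closeness difference was -0.233 and passed (adjusted p = 0.0207), and without SB tail 4 the position difference was 0.0536 (adjusted p = 0.676). With at least 10 reads, position differed by 0.230 (adjusted p = 0.0703) and closeness by -0.0301 (adjusted p = 1).

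In PB tumours, for which these measures are descriptions, 6 insertions lay before the ΔN start and 10 after it, and position averaged 0.656 ± 0.221 over the 13 tumours hit, with 10 of 13 above 0.5. This mean is close to the 0.651 of PB tails. Their mean closeness rank was 0.436 ± 0.209, with 8 of 13 below 0.5. Intron 4 held 4 of the 16 (25%), in 4 tumours, and exon 5 to the end of the gene held 5 (31.3%). SB tumours had 4 insertions before the ΔN start and 1 after it, with a mean position of 0.429 ± 0.238 (n = 4).

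The stretch around Trp63 was also dense in PB tails. Tprg, whose gene lies before Trp63, held 19 PB tail insertions, 5.86 times the number expected from its sites, and P3h2, which encodes a prolyl hydroxylase of collagen and lies after it, held 16, or 4.34 times. Cldn1, which encodes the tight junction protein claudin-1 needed for the barrier of the epidermis, held 4, or 11.1 times the expected 0.361. Between genes the density was also raised, at 3.73 times between Tprg and Trp63 with 24 insertions, and at 5.58 times between Trp63 and P3h2 with 9. Over the 500 kb on each side, PB tails had 47 insertions before Trp63 (3.95 times) and 36 after it (3.05 times). The ratio of Trp63 itself, 7.67, was above those of both flanks and of Tprg and P3h2, and below that of Cldn1. Parts of the flank were denser than Trp63 as a whole. The adjoining 25 kb windows from 25375001 to 25450000, around the end of Tprg, had ratios of 11.1, 14.7 and 11.4. The fullest window of Trp63, from 25825001, had 29.9.

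PB tumours showed no such density there. Their ratio was 0.572 in Tprg, 0.840 in P3h2, 0.833 over the 500 kb before Trp63 and 0.603 over the 500 kb after it, and Cldn1 was not hit. SB tails had ratios of 0.534 in Tprg, 1.68 in P3h2, 0.638 before and 0.979 after. Summed over 500 kb, each flank was thus at or below its expected number in SB tails, while P3h2 was above its own.

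**Figure D2:**
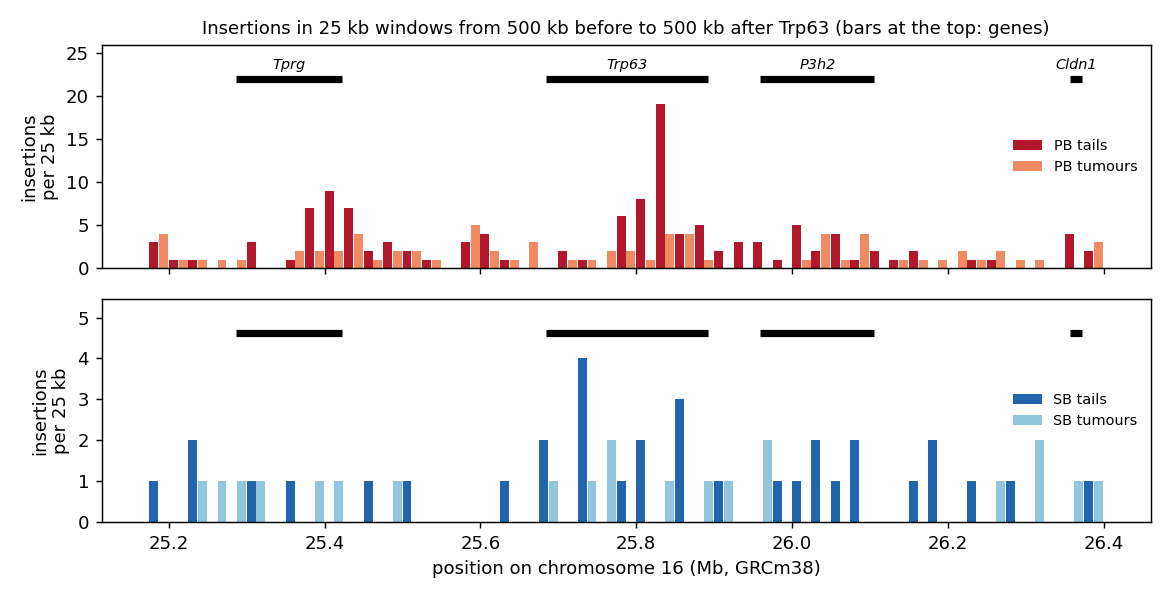
Insertions in windows of 25 kb (vertical axis) along chromosome 16 (horizontal axis, Mb, GRCm38) from 500 kb before to 500 kb after Trp63, PB above and SB below, with black bars for the genes. The tallest bar, 19 PB tail insertions, is the window from 25825001 in intron 4, and a lower group of bars lies at the end of Tprg.

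The genes that act with p63 were described through 4 lists with 50 members in all, tested gene by gene for tails against tumours with edgeR over all genes with at least 10 insertions in a system. Over 3370 genes tested in PB, 2.2% were higher in tails and 2.02% higher in tumours. Over 1130 in SB, 0.177% were higher in tails and 0.708% in tumours. Of the 50 genes, 17 could be tested in PB, of which 6 were higher in tails and 0 higher in tumours, and 8 in SB, of which 1 was higher in tails and 0 in tumours. The lists were chosen with earlier results of these data known, and some genes reached 10 insertions only through tails or only through tumours. These counts are therefore descriptions. At an unadjusted p below 0.05, edgeR put 7 of the 17 higher in tails in PB and 2 higher in tumours, Itch and Smarca4. In SB it put 1 of the 8 higher in tails and 2 higher in tumours, Fbxw7 and Fras1. Over all genes tested, 656 of 3370 in PB and 103 of 1130 in SB lay below that unadjusted p in either direction. At its adjusted threshold DESeq2 put 0 list genes higher in tumours, of 8 with an adjusted p in PB and 8 in SB. The TMM scaling of edgeR moved the median of all genes by -0.21 log2 in PB and 0.22 in SB, and turned the PB split from 74 genes higher in tails and 68 in tumours to 46 and 131.

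The p53 family list holds the relatives of Trp63, the tumour suppressor Trp53 and Trp73, and neither reached 10 insertions in a system. Trp53 had 0 insertions in PB tails, 5 in PB tumours, 0 in SB tails and 1 in SB tumours. Trp73 had 1, 2, 2 and 1. Both relatives hold far fewer motif sites than Trp63, 46 and 212 TTAA sites against 1446.

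Regulators of p63 protein, mainly ubiquitin ligases, kinases and binding partners, numbered 10, of which 6 were tested in PB and 2 in SB, and 0 passed in either direction with edgeR, nor with DESeq2, which gave 2 of them an adjusted p in each system. At an unadjusted p below 0.05, 1 of 6 was higher in tumours in PB, Itch, and 1 of 2 in SB, Fbxw7, with 0 higher in tails. Over all genes tested, 656 of 3370 in PB and 103 of 1130 in SB lay below that p in either direction, so these counts are descriptions. The median log2 difference was -0.67 in PB, against -0.20 over all genes tested, and -1.46 in SB against -0.01. Fbxw7, the substrate-binding subunit of a ubiquitin ligase, had 11 insertions in PB tails and 56 in PB tumours (log2 -0.59, adjusted p = 0.544), and 5 and 17 in SB (log2 -1.68, adjusted p = 0.242). Itch, a ubiquitin ligase that targets p63, had 1 and 16 in PB (log2 -1.45, adjusted p = 0.257) and 4 and 10 in SB (log2 -1.24, adjusted p = 0.588). The kinase Hipk2 had 7 and 41 in PB, Mdm4, which binds p53, 1 and 10, and the ligase Wwp1 5 and 14, with adjusted p values of 0.489, 0.542 and 0.902. Of the p53-binding ASPP proteins, Ppp1r13b had 3 and 14 in PB and Trp53bp2 0 and 8, and Chuk, the kinase IKKα, had 1 and 1.

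Of 15 epidermal transcription factors and co-regulators, 14 lay on the kept chromosomes, 4 were tested in PB and 2 in SB. Grhl2, a grainyhead factor of epithelia, was higher in PB tails, with 21 insertions in 7 of 12 tails and 7 in 7 of 30 tumours (log2 2.67 ± 0.49 (SE), adjusted p = 2.03e-05). In SB it had 7 insertions in tails and 3 in tumours (log2 0.77, adjusted p = 0.814). The chromatin remodeller Smarca4 had 0 insertions in PB tails and 11 in PB tumours (adjusted p = 0.130), at least 1.12-fold lower in tails if 3 insertions are set as the floor over the PB tails. The genome organiser Satb1 had 5 and 24 in PB (log2 -0.48, adjusted p = 0.710), and the AP-2 factor Tfap2a 0 and 5.

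Epidermal targets of p63 numbered 23, with 7 tested in PB and 4 in SB. In PB 5 of 7 were higher in tails and 0 in tumours, with a median log2 difference of 1.73, and in SB 1 of 4, with a median of 0.12. These calls are descriptions, since the list was chosen with earlier results of these data known. Notch1, Fgfr2 and Dsp also reached the minimum of 10 insertions in PB only through tails, as did Notch1 in SB. Notch1, a receptor that drives keratinocyte differentiation, had 51 insertions in 12 of 12 PB tails and 7 in 5 of 30 PB tumours (log2 3.98 ± 0.43 (SE), adjusted p = 1.52e-16). In SB, Notch1 had 38 insertions in 11 of 11 tails and 0 in tumours (adjusted p = 7.31e-07), at least 10.9-fold higher in tails against a floor of 3 insertions over the SB tumours. Notch1 was thus hit in every tail of both systems. The growth factor receptors Fgfr2 and Egfr were also higher in PB tails: Fgfr2 with 10 insertions in 7 tails and 3 in 3 tumours (log2 2.38, adjusted p = 0.00400), and Egfr with 19 in 9 tails and 16 in 12 tumours (log2 1.73, adjusted p = 0.0119). Of the junction and anchoring genes, desmoplakin, Dsp, had 10 insertions in 6 PB tails and 2 in 2 tumours (log2 2.60, adjusted p = 0.00143), and dystonin, Dst, 24 in 10 tails and 25 in 14 tumours (log2 1.47, adjusted p = 0.0253).

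Fras1 and Itga6, which encode a basement membrane protein and an integrin of hemidesmosomes, did not pass in PB, with log2 differences of 1.31 (adjusted p = 0.121) and -0.31 (adjusted p = 0.851). In SB, Dst was at 0.74 (adjusted p = 0.815), Egfr at -0.50 (adjusted p = 0.867) and Fras1 at -1.36 (adjusted p = 0.475). Among targets with too few insertions for the test, PB tails and PB tumours had 7 and 0 in Perp, a desmosomal protein, 5 and 1 in the collagen Col17a1, 5 and 1 in the plakophilin Pkp1, 4 and 1 in the cadherin Cdh3, 4 and 3 in the ectodysplasin receptor Edar, and 2 and 5 in the Notch ligand Jag1. Summed over the 23 targets, PB tails had 165 insertions, 5.27 times the number expected from their sites, and PB tumours 88, or 0.838 times. Notch1 alone gave 51 of the 165, or 145 times its expected 0.353, and 7 of the 88, or 6.26 times, so it weighs heavily in these sums. The keratin genes Krt5 and Krt14, which mark basal keratinocytes, hold 9 and 8 TTAA sites, and had 0 and 1 PB tail insertions. What part the kinds of cells in a tail had in these numbers was not tested.

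The count of 5 targets depended on the settings: it was 3 of 4 with DESeq2, 3 of 3 with a minimum of 30 insertions, 6 of 13 with a minimum of 5, 3 of 7 with the first number of the names as a block, and 1 when insertions needed at least 10 reads (of 5) or samples with joined names alone were used (of 4). Dst also missed the threshold with TMM scaling (log2 1.23, adjusted p = 0.0712), and Egfr with the name form as a block (log2 1.55, adjusted p = 0.0552). With the first number as a block the targets that missed it were Dst (log2 1.45, adjusted p = 0.120) and Egfr (log2 1.74, adjusted p = 0.0556).

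The genes whose levels over the 64 samples were most like those of Trp63, among 1304 genes with at least 30 insertions, were Notch1 (Spearman correlation 0.623), Mcc (0.452), Robo1 (0.435), Vav3 (0.416) and Pdzd2 (0.412), and the median gene was at -0.0518. Samples of a group resemble each other, and 28 of the 64 are 0 for Trp63, so the order is a description. Within the 12 PB tails alone, the correlation was 0.490 for Notch1, 0.175 for Mcc, 0.291 for Robo1, 0 for Vav3 and 0.0140 for Pdzd2. Mcc, a gene mutated in colorectal cancers, had 29 insertions in 12 of 12 PB tails and 17 in 16 of 30 PB tumours (log2 2.23, adjusted p = 7.95e-05). Robo1, a receptor for Slit proteins, had 19 and 30 in PB (log2 0.95, adjusted p = 0.207), and Vav3, a guanine nucleotide exchange factor, 30 and 52 (log2 0.87, adjusted p = 0.161). Pdzd2, a protein with PDZ domains, had 22 and 33 (log2 1.04, adjusted p = 0.132). The 5 genes were picked for likeness to Trp63, which was itself chosen for having more insertions in PB tails than in PB tumours. Testing them on that contrast repeats the choice, so these edgeR values are descriptions and no call is drawn from them here. The call of Notch1 among the p63 targets above is a description for the same reason. With joined names alone Mcc was at log2 1.95 (adjusted p = 0.130, edgeR) and Vav3 changed sign (log2 -0.77, adjusted p = 0.682).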

How the data were processed

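Insertions had been mapped to mm10 from QiSeq libraries of 64 genomic DNA samples. The deposited table gives raw read counts per insertion site, made by the authors with an aligner and a caller not given in the sources used here; 1 further per-sample column, a normalised coverage, was not used. Trp63, its members and all gene lists were chosen with earlier results of these data known. Each line was moved to a TTAA (PB) or TA (SB) motif within 5 bp, and lines on the same motif in 1 sample were merged into 1 insertion. Chromosome 14, which in both systems had more insertions per Mb than any other autosome and was read as the transposon donor, was left out, as were X and Y. Levels are insertions per 10000 kept insertions of a sample. Kept reads per sample had group medians from 104091 to 136578. A Trp63 level rests on 0 to 7 insertions, so its counting error is large. Genes, transcripts and elements came from RefSeq for GRCm38. Position, closeness to the ΔN start, strand and read rank were tested over samples by two-sided exact sign-flip tests against 0.5 and by exact permutation tests of PB against SB tails, with Benjamini-Hochberg adjustment over 12 tests. Where an alternative left too few SB tails to test, the adjustment was over the PB tail tests alone. Tails and tumours were compared per gene and system with edgeR 4.0.16 quasi-likelihood tests on genes with at least 10 insertions, with kept insertions as library size and a threshold of adjusted p below 0.05. The tests were also run on simulated data. Named genes were taken from Trp63, list genes with at least 5 insertions or a passed test, genes within 500 kb, and the 5 genes most alike by Spearman correlation among those with at least 30 insertions; Krt5 and Krt14 were added after their values were seen. Alternatives were DESeq2 1.42.0, TMM, minimums of 5 and 30 insertions, at least 10 reads, unmerged lines, shared positions left out, samples with at least 3 Trp63 insertions, positions in base pairs, name forms apart or as a block, the first number of the names as a block or to average tails, other denominators, 25 kb added to the gene, reads in place of insertions, and each sample left out. Those for intron 4, the count of p63 targets and the first number of the names were added after the data were seen. Python 3.11.15, numpy 2.4.6, pandas 2.3.3, scipy 1.17.1, matplotlib 3.10.9, R 4.3.3 and limma 3.58.1 were used.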

Additional observations from a re-analysis of the deposited data

How the results depend on the processing

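No paired analysis was possible because no tail shares its full code with a tumour, and replicates were numbered in the order of the samples. The first number of the names recurs in both and was used as an alternative chosen after seeing the data. No sample had more than 7 Trp63 insertions, so each per-sample mean rests on few values. Leaving out 1 sample, PB tail position stayed at 0.636 to 0.668 (adjusted p 0.0234 to 0.0469) and closeness at 0.323 to 0.360 (adjusted p 0.0117 to 0.0469), all past the threshold. With at least 10 reads, PB tail closeness was 0.381 (n = 11, adjusted p = 0.141), SB tail position 0.460, SB tail closeness 0.411, and the PB minus SB strand difference -0.199. Without shared positions, PB tail position was 0.655 and closeness 0.364. With joined names alone, PB tail position was 0.693, closeness 0.364 and read rank 0.417, and SB tail position 0.481. With separated names, PB tail position was 0.622 and closeness 0.332. With at least 3 insertions a sample, PB tail read rank was 0.443. With tails averaged by the first number, PB tail position was 0.654 and closeness 0.373, SB tail position 0.470, and the PB minus SB strand difference -0.0848. Over the alternatives other than leaving out 1 sample, adjusted p ran from 0.0156 to 0.416 for both PB tail measures. With at least 10 reads the PB minus SB difference was 0.230 for position and -0.0301 for closeness. Leaving out 1 sample moved the position difference from 0.0536 to 0.178 and the closeness difference from -0.233 to -0.101, and without SB tail 3 the latter passed (adjusted p = 0.0207). Such omissions also moved the PB minus SB strand difference from -0.0460 to 0.121, PB tail read rank from 0.466 to 0.527, SB tail closeness from 0.447 to 0.579 and SB tail position from 0.474 to 0.598, across 0 or 0.5 respectively. The cause of these shifts was not tested.

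Trp63 levels and the share of PB tail insertions in intron 4 (41.0% to 50.1% without 1 sample, 42.3% to 49.3% otherwise) moved by less than 1 SD under every alternative run. Some levels still moved by over 1.5 times: SB tumours to 0.904 without SB tumour 7, SB tails to 0.350 with separated names, 1.25 with the donor chromosome kept and 1.31 as reads, and PB tumours to 0.580 as reads, 0.729 with at least 10 reads and 2.40 with separated names. SB tails could not be tested with at least 3 insertions or with separated names, where 1 sample remained.

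The number of genes that passed in PB fell from 142 to 65 with DESeq2, which gave no adjusted p to 1960 of the 3370 genes, to 28 with joined names and to 68 with the first number as a block. Higher in PB tails were 74, against 39 with DESeq2, 46 with TMM, 41 with at least 30 insertions, 46 with at least 10 reads, 18 with joined names and 31 with the first number as a block. Higher in PB tumours were 68, against 26 with DESeq2, 131 with TMM, 44 with at least 5 insertions, 10 with joined names, 43 with name form as a block and 37 with the first number as a block. The p63 targets higher in PB tails were 5, against 3 with DESeq2, 3 with at least 30 insertions, 1 with at least 10 reads, 1 with joined names and 3 with the first number as a block. SB passes fell from 10 to 2 with DESeq2, those higher in tails from 2 to 1 with DESeq2 and 1 with at least 30 insertions, rising to 4 with at least 10 reads, and those higher in tumours from 8 to 1 with DESeq2. The log2 difference changed sign for Wwp1 with TMM (-0.044), for Vav3 with joined names (-0.77), and for Pdzd2 in SB with TMM (0.19) and joined names (0.090). Fewer genes or samples enter under the stricter minimums and joined names. The cause of the other shifts was not tested.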
